A study of Mus musculus with 12 samples.

Results

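Of the 12 RNA sequencing libraries in the study, 6 were from mouse duodenum, and these were compared here as 3 libraries from mice given AC H6 against 3 from mice given an isotype control. AC H6 is an agonist of the lymphotoxin beta receptor (LTbR), and an isotype control antibody has the same constant region but does not bind that receptor. All mice were wild type C57BL/6J aged 2 months. Each received 100 ul of a 1 mg/ml solution, and tissue was taken after 24 hours. The remaining 6 libraries were from spleen under the same 2 treatments. The libraries were chosen by their tissue and treatment labels alone, and all 15667 genes with enough counts in the duodenum were tested. Whether each library of a group was made from a different mouse is not stated in the labels. The p-values below therefore measure the spread among these libraries, which may be technical in part.

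LTbR is a member of the tumour necrosis factor (TNF) receptor superfamily that is carried by epithelial, stromal and myeloid cells and binds lymphotoxin and LIGHT from lymphocytes. Its engagement releases the kinase NIK from TRAF3-dependent breakdown, and NIK with the kinase subunit encoded by Chuk drives processing of the Nfkb2 product, which then acts with RelB in the alternative NF-kB pathway. In the gut the receptor is known for the formation of Peyer's patches and isolated lymphoid follicles, for the follicle epithelium above them with its antigen-sampling M cells, and for IgA responses.

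The 6 libraries held 24811659 to 43851006 counts. They differed in 3 ways in which the treatment groups overlapped. The ribosomal RNA gene Rn45s took 7.56% of the counts of isotype replicate 1 and 1.18% of AC H6 replicate 2, against 0.0880% to 0.206% in the other 4. A list of pancreatic acinar genes took 3.56% of AC H6 replicate 3, 0.910% of isotype replicate 2 and 0.324% of AC H6 replicate 2, and at most 0.0219% of the other 3. The stomach mucosa gene Gkn1 stood at 1.32 CPM (counts scaled to the size of the library, the usual measure of a gene's level) in isotype replicate 1 and at 158 to 751 CPM in the others. The RNA protocol in the labels speaks of brains, but intestinal genes were high in every library, Vil1 at 1498 to 1960 CPM and Alpi at 6596 to 8561 CPM. Genes used as brain markers were far lower, the astrocyte gene Gfap at 0.640 to 1.41 CPM, Snap25 at 5.19 to 6.87 CPM and Mbp at 28.2 to 37.3 CPM.

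AC H6 was followed by broad and mostly small changes in the duodenum, with a short list of large rises. Of the 15667 genes, 2899 were higher and 2529 lower in the AC H6 libraries at an adjusted p under 0.05 (Benjamini-Hochberg) in the quasi-likelihood test of edgeR, which is 18.5% and 16.1% of the genes tested. Only genes past that threshold are said below to have risen or fallen. The median log2 fold change of all genes was 0.008. The median rise was 1.44-fold and the median fall 1.26-fold, and 488 genes rose and 78 fell by more than 2-fold. Past 8-fold, 29 genes rose and 7 fell. Genes that rose took 9.72% of all counts in the isotype libraries and 13.6% in the AC H6 libraries, and genes that fell took 39.3% and 30.6%. The 3 libraries of one group lay wholly above those of the other for 7742 genes (49.4%), and for 5376 of the 5428 genes called. In these bulk libraries, a change in the number of cells of a type and a change in RNA per cell cannot be told apart.

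**Figure D1:**
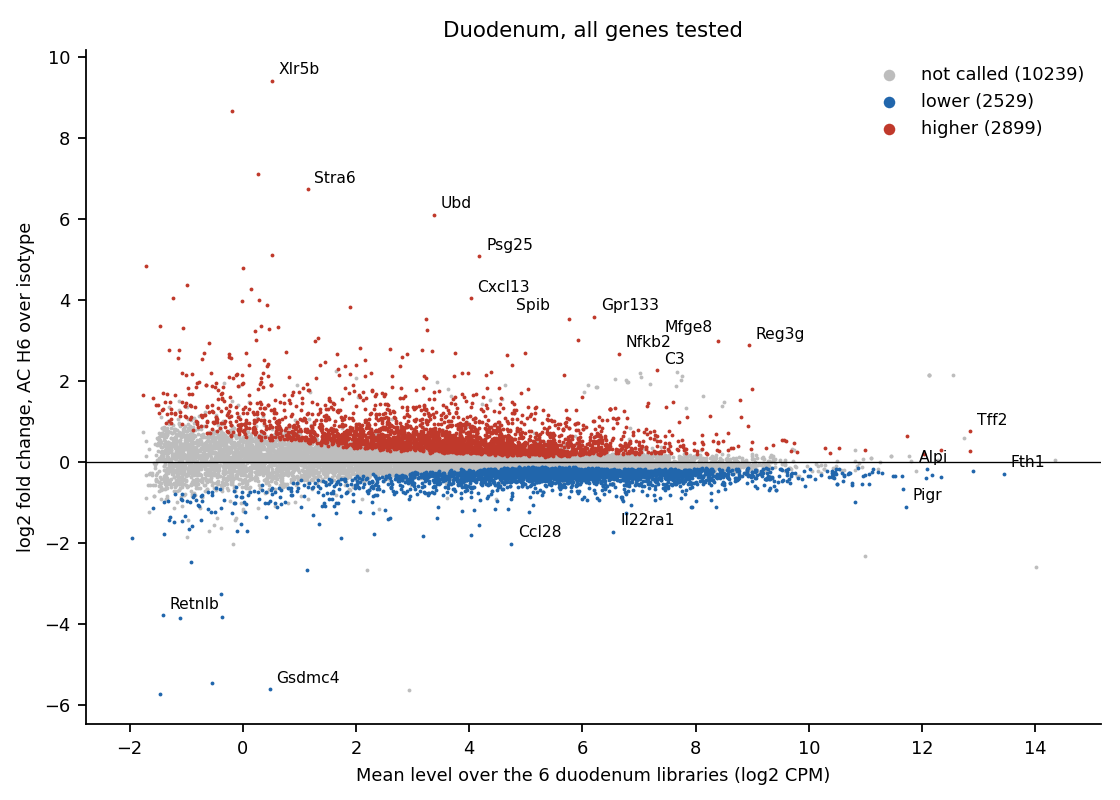
Log2 fold change of AC H6 over isotype (y) against the mean log2 CPM over the 6 duodenum libraries (x), 1 point for each of the 15667 genes tested, coloured by call. Past 2-fold, 488 called genes lie above and 78 below, and the 10 called genes with the highest mean CPM, at the right, all changed by less than 2-fold.

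Most genes of the alternative NF-kB pathway rose, and the receptor itself was not called. Nfkb2, whose product is the precursor processed in that pathway, was at 27.0, 25.6 and 29.6 CPM in the isotype libraries and at 175, 173 and 169 CPM in the AC H6 libraries, a log2 fold change of 2.66 (SE 0.08, adjusted p = 4.68e-07 in edgeR). Map3k14, which encodes NIK, was at 8.73, 9.12 and 10.1 CPM and rose to 28.7, 27.0 and 28.4 CPM (log2 1.59, SE 0.07, adjusted p = 4.88e-06 in edgeR). The AC H6 libraries were above the isotype libraries for both genes, without overlap. Relb (log2 1.06, SE 0.09), Traf3 (1.02, SE 0.08), Traf2 (0.93, SE 0.05) and the ubiquitin ligase gene Birc3 (0.88, SE 0.07) also rose. Rises were smaller for the classical subunits Rela (log2 0.27, SE 0.07) and Nfkb1 (0.22, SE 0.07) and for Birc2, a close relative of Birc3 (0.21, SE 0.06). These 3 small rises were not called without single libraries: Nfkb1 without isotype replicate 1 or 2 or AC H6 replicate 1 or 2 (0.18 to 0.23), Birc2 without isotype replicate 2 or any AC H6 replicate (0.15 to 0.22), and Rela without AC H6 replicate 2 (0.26). Chuk fell by 0.46 on the log2 scale (SE 0.07). Ltb, a lymphotoxin subunit made by lymphocytes, rose from 1.36 to 1.85 CPM in the isotype libraries to 3.97 to 4.41 CPM (log2 1.46, SE 0.15). Ltbr was at 137, 136 and 130 CPM and at 122, 117 and 116 CPM, a log2 fold change of -0.18 (SE 0.06) with an adjusted p of 0.0530 in edgeR. Every AC H6 library was below every isotype library, but groups were without overlap for 49.4% of all genes tested. Ltbr was called in DESeq2 (adjusted p = 0.0203) and limma-voom (0.0214), and the adjusted p ran from 0.0203 to 0.286 over the alternatives. Ikbkb, Ikbkg and Tnfsf14 were not called, and Lta, at 0.0315 to 0.168 CPM, was too low to be tested. In all, 10 of the 15 tested genes of this list rose and 1 fell, with a median of 0.273.

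Inhibitors that NF-kB induces against itself rose as well. In a list of feedback and target genes, 12 of 18 rose and 2 fell, with a median log2 fold change of 0.501. Nfkbie, encoding an inhibitor of the IkB family, rose by 1.74 (SE 0.10), Traf1 by 1.57 (SE 0.22), Nfkbia by 1.33 (SE 0.12) and Tnfaip3, a ubiquitin-editing enzyme, by 0.73 (SE 0.09). The 2 that fell were Nfkbiz (-0.81, SE 0.15), encoding a nuclear IkB protein, and Sod2 (-0.35, SE 0.06), the mitochondrial superoxide dismutase. Among 19 TNF family ligands and receptors, 11 rose and 2 fell (median 0.715), or 7 and 2 without isotype replicate 1 and AC H6 replicate 2, the libraries highest in Rn45s. Tnfsf11, the RANK ligand that drives M cell differentiation, rose by 2.66 (SE 0.32) from 0.135 to 0.351 CPM in the isotype libraries to 1.17 to 1.44 CPM. Its receptor gene Tnfrsf11a rose by 0.90 (SE 0.06) and the gene of its decoy receptor, Tnfrsf11b, by 0.84 (SE 0.16). The 2 that fell encode B cell survival factors, Tnfsf13b, which is BAFF (-0.57, SE 0.11), and Tnfsf13, which is APRIL (-0.26, SE 0.05). The survival genes Bcl2a1a, Bcl2a1b and Bcl2a1d, chosen after their values were seen, rose with log2 fold changes of 1.75 (SE 0.18), 1.43 (SE 0.12) and 1.83 (SE 0.14). They are close copies of each other, and reads with several matches were counted, so they are not separate measurements.

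Predicted gene models apart, the largest rises at a mean log2 CPM of at least 1 included genes that were nearly silent in the isotype libraries. Stra6, encoding the cell surface receptor for retinol-binding protein, had 3 counts in the 3 isotype libraries together and 458 in the AC H6 libraries, a ratio of 117 by depth with a 95% exact counting interval of 39.7 to 569. Ubd encodes FAT10, a ubiquitin-like modifier. It was at 0.307, 0.264 and 0.303 CPM in the isotype libraries and at 19.3, 20.9 and 19.9 CPM in the AC H6 libraries, 68.5-fold higher (log2 6.10, SE 0.12, adjusted p = 8.73e-08 in edgeR). Psg25, a gene of the pregnancy-specific glycoprotein family, rose from 0.789, 1.14 and 1.11 CPM to 28.3, 36.1 and 39.9 CPM (log2 5.06, SE 0.18, adjusted p = 1.60e-06 in edgeR). The isotype and AC H6 libraries did not overlap for any of the 3. The next in order were Cxcl13 (log2 4.03), Gpr133 (3.58), Il4i1 (3.53), Spib (3.52), Ces3a (3.25), Fut1 (3.05), Ccl9 (3.00), Colq (2.98), Mfge8 (2.98), Reg3g (2.87), Stx11 (2.80) and Ccr2 (2.77), with standard errors of 0.06 to 0.35. Gpr133 encodes an adhesion receptor and was at 8.77 to 13.2 CPM against 123 to 151 CPM. Fut1 encodes a fucosyltransferase, Ces3a a carboxylesterase, Colq the collagen tail of acetylcholinesterase and Stx11 a syntaxin of vesicle fusion. Il4i1, an amino acid oxidase gene, overlaps the readthrough gene Nup62-il4i1, which rose by 1.66 (SE 0.12), so reads of the 2 cannot be fully told apart. Genes with the smallest p also included Celsr1, a planar polarity cadherin (log2 2.69, SE 0.08), Lpcat4, a phospholipid acyltransferase (2.12, SE 0.07), and the transcription factor gene Mycl1 (1.47, SE 0.05).

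Below a mean log2 CPM of 1 the X-linked family Xlr5 stood out. Xlr5b had no count in the isotype libraries and 289 in the AC H6 libraries, at least 73.7-fold higher against a floor of 3 counts over the isotype group. Xlr5c likewise went from 0 to 171 counts, at least 43.6-fold higher, and Xlr5a from 1 to 240, a ratio of 184 with a 95% exact counting interval of 32.7 to 7280. The 3 members are closely related in sequence and may share reads. Khdc1c had 3 and 88 counts, a ratio of 22.4 with an interval of 7.43 to 111. In the other direction, Mbl2, encoding a mannose-binding lectin, had 119 counts in the isotype libraries and 3 in the AC H6 libraries, 51.8-fold lower with an interval of 17.3 to 255. These intervals cover counting error only. The 5 genes named in this paragraph fall outside the naming rule and were chosen after their values were seen.

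The promoters of the largest rises were searched for the binding consensus of NF-kB, since its pathway genes rose. Promoter windows, 250 bases before to 50 after the start of transcription (RefSeq, build GRCm38), were found for 18 of the 22 rises that were among the 15 largest or had the 10 smallest p. The full NF-kB consensus, searched on both strands, was present in 7 of their 23 windows (30.4%), from 5 genes, against 4.5% of all 32544 windows in the table. Nfkb2 supplied 3 of the 7, and 2 of its windows overlap and share 1 match. A looser form, 3 G, any 5 bases and 2 C, was in 19 of the 23 windows (82.6%) against 51.0% of all windows. The STAT core TTCNNNGAA was in 3 of 23 (13.0%) against 8.3%, and the interferon response element with GAAA, any 2 bases and GAAA was in 0 of 23 against 3.4%. The full and the looser NF-kB forms overlap, and the full form was added after the data were seen. A match is a description of the letters and not a bound site.

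The 5 promoters with a full match in the 200 bases before the start are shown because they belong to genes that rose together. Sequences read 5′ to 3′ on the strand of the gene, and capitals mark the match. They are Ubd at chr17:37193692-37193891 (plus strand), Spib at chr7:44532072-44532271 (minus), Ccl9 at chr11:83578637-83578836 (minus), Reg3g at chr6:78468875-78469074 (minus) and the first of 3 starts of Nfkb2 at chr19:46304537-46304736 (plus).
Ubd: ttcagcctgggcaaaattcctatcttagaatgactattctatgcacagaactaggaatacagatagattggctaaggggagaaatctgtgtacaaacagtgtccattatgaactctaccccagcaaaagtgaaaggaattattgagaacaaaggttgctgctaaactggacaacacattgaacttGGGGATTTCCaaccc
Spib: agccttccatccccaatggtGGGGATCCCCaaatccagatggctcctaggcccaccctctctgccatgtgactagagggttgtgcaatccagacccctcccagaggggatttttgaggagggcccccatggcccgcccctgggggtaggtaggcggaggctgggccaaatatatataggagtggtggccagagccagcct
Ccl9: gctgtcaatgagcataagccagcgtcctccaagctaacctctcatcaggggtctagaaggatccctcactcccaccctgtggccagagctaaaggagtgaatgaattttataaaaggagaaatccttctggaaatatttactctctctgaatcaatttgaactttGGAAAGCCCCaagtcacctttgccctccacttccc
Reg3g: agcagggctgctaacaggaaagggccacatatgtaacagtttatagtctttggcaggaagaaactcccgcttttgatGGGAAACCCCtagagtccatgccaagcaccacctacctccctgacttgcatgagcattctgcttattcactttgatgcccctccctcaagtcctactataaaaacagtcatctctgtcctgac
Nfkb2: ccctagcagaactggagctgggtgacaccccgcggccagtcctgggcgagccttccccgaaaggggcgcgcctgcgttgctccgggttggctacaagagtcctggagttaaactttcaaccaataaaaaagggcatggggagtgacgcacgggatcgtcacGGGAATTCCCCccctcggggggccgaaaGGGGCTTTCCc
The match in Ubd ended 6 bases before the start, that in Ccl9 26 bases before, and Nfkb2 held 2 stretches of matches that ended 29 and 2 bases before the start. Those in Reg3g and Spib lay further out, from 123 and 180 bases before the start.

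Chemokines and adhesion molecules of lymphoid tissue rose. Cxcl13, which draws B cells into follicles, was at 1.49, 2.26 and 1.68 CPM in the isotype libraries and at 28.0, 27.1 and 35.4 CPM in the AC H6 libraries (log2 4.03, SE 0.16, adjusted p = 3.22e-06 in edgeR). Ccl19, a ligand of the T cell and dendritic cell receptor CCR7, rose from 0.175, 0.293 and 0.269 CPM to 2.68, 2.81 and 2.20 CPM (log2 3.32, SE 0.24). Icam1, the adhesion ligand of leukocyte integrins, rose from 8.25, 8.33 and 9.26 CPM to 45, 44.7 and 44.6 CPM (log2 2.38, SE 0.06, adjusted p = 2.26e-07 in edgeR). In each case every AC H6 library was above every isotype library. Madcam1, the gut vascular addressin, rose by 2.12 (SE 0.13), Ccl20 by 1.81 (SE 0.25), Vcam1 by 1.22 (SE 0.06) and Ccl21a by 1.21 (SE 0.09). Ccl21a has close copies, Ccl21b (1.30) and Ccl21c (1.30), with which it may share reads. Of 15 genes in this list, 10 rose and 1 fell (median 0.801). Markers of stroma and endothelium moved with them. Of 12 stroma markers 6 rose and 1 fell (median 0.328), with summed levels of 952 to 1059 CPM in the isotype and 1230 to 1338 CPM in the AC H6 libraries. Of 13 endothelial markers 7 rose and 1 fell (median 0.314), or 4 and 1 without the libraries highest in Rn45s, with summed levels of 321 to 352 CPM and 396 to 426 CPM. Their part in the rise of the chemokines was not tested.

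Of 16 other chemokine genes, 9 rose and 2 fell (median 0.970). Cxcl10, a ligand of CXCR3 on T cells, rose from 1.97, 1.76 and 2.26 CPM to 11.6, 13.6 and 12.4 CPM (log2 2.65, SE 0.12). Cxcl11 rose by 2.35 (SE 0.34), the monocyte attractant Ccl2 by 2.05 (SE 0.32), Cxcl9 by 1.63 (SE 0.16) and Ccl6 by 1.37 (SE 0.09). The eosinophil attractant Ccl11 fell, from 31.1, 28.7 and 31.9 CPM to 11.8, 11.9 and 16.8 CPM (-1.18, SE 0.13), and Cxcl14 fell as well (-0.60, SE 0.08). The AC H6 libraries were the lower group for both. Among 12 cytokine genes that could be tested, 4 rose, which were Il1rn, the receptor antagonist of interleukin 1 (1.57, SE 0.25), the macrophage growth factors Csf1 (1.21, SE 0.06) and Il34 (0.89, SE 0.08), and Tgfb1 (0.90, SE 0.07). Il15, which sustains intraepithelial lymphocytes, fell (-0.49, SE 0.08).

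Genes of the follicle epithelium and M cells rose almost throughout. Of 16 genes, 15 rose and none fell, with a median log2 fold change of 1.628. Spib, the transcription factor that M cells need, was at 9.65, 8.24 and 8.25 CPM in the isotype libraries and at 88.7, 95.9 and 114 CPM in the AC H6 libraries (log2 3.52, SE 0.11, adjusted p = 9.88e-07 in edgeR). Mfge8, encoding a bridge between dying cells and phagocytes, rose from 78.3, 76.2 and 72.7 CPM to 611, 580 and 600 CPM (log2 2.98, SE 0.06, adjusted p = 8.73e-08 in edgeR). Marcksl1 rose from 8.35 to 8.68 CPM to 51.3 to 57.9 CPM (log2 2.68, SE 0.06). The AC H6 libraries were above the isotype libraries for these 3 genes, without overlap. Ccl9, the chemokine of the follicle epithelium, rose from 11.8 to 15.8 CPM to 99.0 to 112 CPM (3.00, SE 0.11), and Sox8, a second M cell transcription factor, rose by 3.00 (SE 0.37). Icosl was not called (0.08, SE 0.06). Gp2, the bacterial receptor of mature M cells, was at 5.75, 26.2 and 11 CPM and at 29.2, 36.5 and 87.0 CPM (log2 1.80, SE 0.54, adjusted p = 0.0330 in edgeR). Gp2 is also a protein of pancreatic zymogen granules. Isotype replicate 2 and AC H6 replicate 3, where it was highest within each group, held the most acinar RNA, and without these 2 libraries its log2 fold change was 1.96. Leaving them out did not even out acinar RNA, since AC H6 replicate 2 remained. The median log2 fold change of the acinar list was then 3.14, against 1.919 in the full comparison. The part of acinar RNA in the rise of Gp2 was not tested. Gp2 was not called without isotype replicate 1 (1.45), isotype replicate 3 (1.63), AC H6 replicate 2 (1.99) or AC H6 replicate 3 (1.17). In that comparison of 4 libraries 15 of the 16 genes were called, with a median of 1.744.

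**Figure D2:**
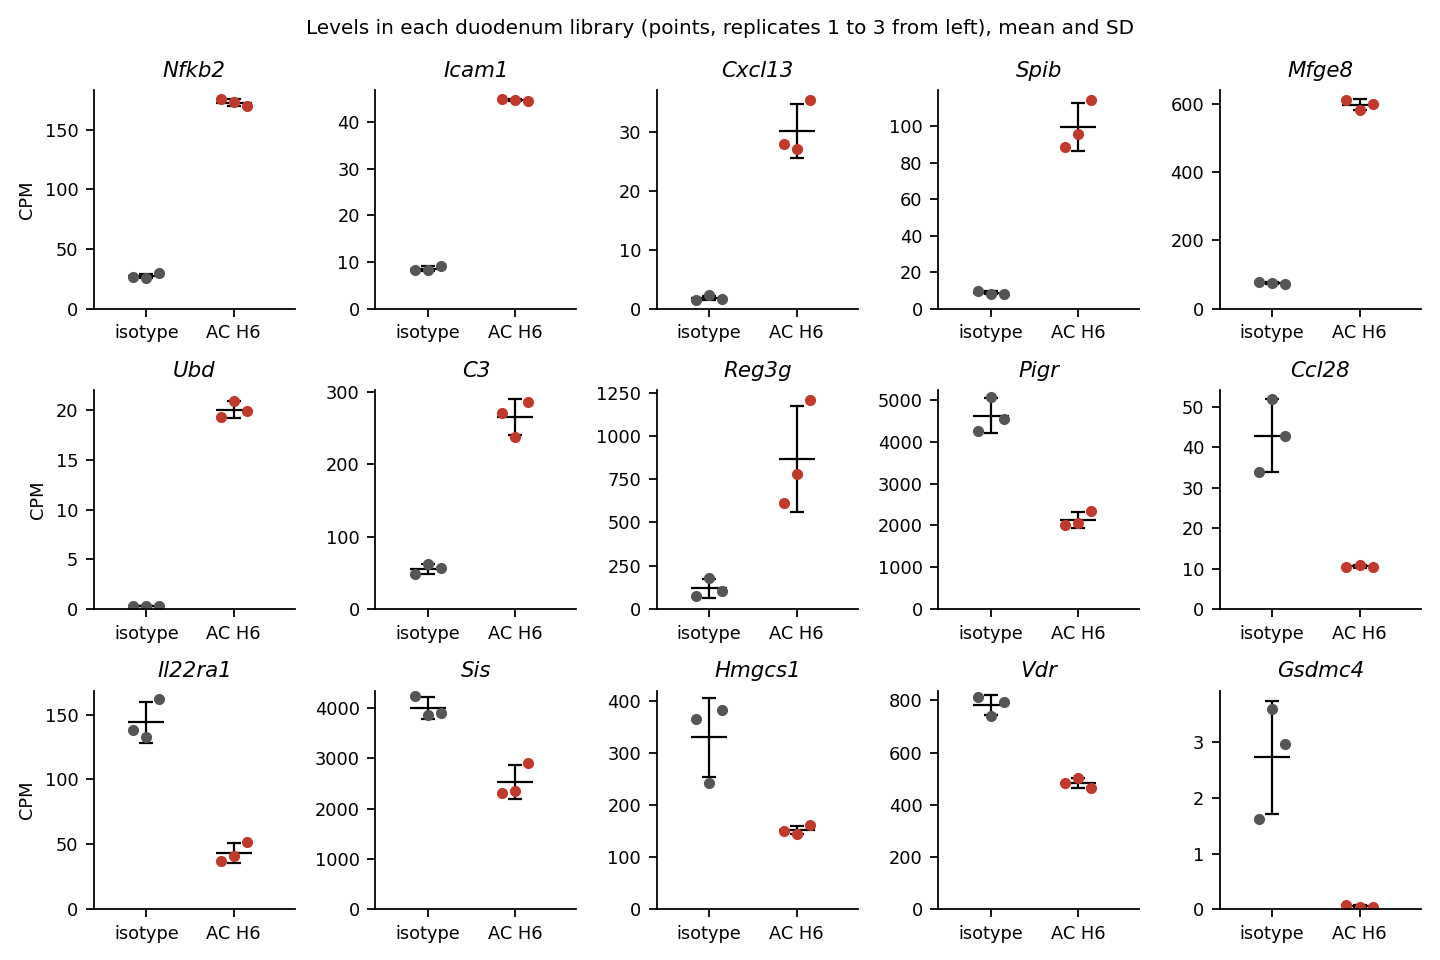
CPM of 15 genes in each duodenum library (points, replicates 1 to 3 from left in each group), with the group mean (bar) and SD (whiskers). The isotype and AC H6 libraries are separate in every panel, and the AC H6 libraries spread from 610 to 1206 CPM for Reg3g.

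Most interferon response genes rose. Of 26 genes of the type I interferon response 21 rose and none fell (median 1.03), and of 24 genes of the interferon gamma response 22 rose and none fell (median 0.94). Bst2, a tether of budding virus, was at 13.7, 11.9 and 12.2 CPM and at 36.1, 32.7 and 32.8 CPM (log2 1.43, SE 0.07, adjusted p = 7.89e-06 in edgeR). Isg15 rose by 1.42 (SE 0.10) and Oas1g, an activator of RNA breakdown, by 1.32 (SE 0.08). Gbp3, a guanylate-binding protein gene, was at 10.4 to 12 CPM and rose to 24.5 to 28.7 CPM (1.26, SE 0.08). The AC H6 libraries were the higher group without overlap for each of these genes. The remaining 5 and 2 genes of these lists were not called. By symbol stem, a grouping made after the data were seen, 10 of 11 Gbp genes and 8 of 12 Tlr genes rose and none fell.

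Genes of antigen presentation to both kinds of T cell rose. Of 17 genes for MHC class I and the immunoproteasome, 11 rose and none fell (median 0.328), among them Nlrc5, the class I transactivator (1.22, SE 0.11), and H2-D1 (0.45, SE 0.05). Ubd is a member of this list and of the interferon gamma list. Other lists share members too, so their counts are not independent. Ciita is in the class II and interferon gamma lists, and C1qa, C1qb and C1qc are in the complement and macrophage lists. Of 11 class II genes 8 rose and none fell (median 0.664), with Ciita, their transactivator, at 0.94 (SE 0.09) and the peptide-binding chain H2-Ab1 at 0.75 (SE 0.08). Of 18 complement genes 14 rose and none fell (median 0.836). C3, the central component, was at 47.7, 62.2 and 56.2 CPM and at 271, 238 and 286 CPM (log2 2.26, SE 0.11, adjusted p = 7.93e-06 in edgeR), 4.78-fold higher. C1ra rose by 1.20 (SE 0.04) and C4b by 0.96 (SE 0.08). Of 15 protease inhibitor genes 10 rose and none fell, led by Serpina1b (2.51, SE 0.16), Serpina3f (2.17, SE 0.16) and Serpina3n (2.07, SE 0.10). All 10 tested genes with the stem Serpina rose, with a median of 2.008. Several are close copies, so reads can be shared among them.

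**Figure D3:**
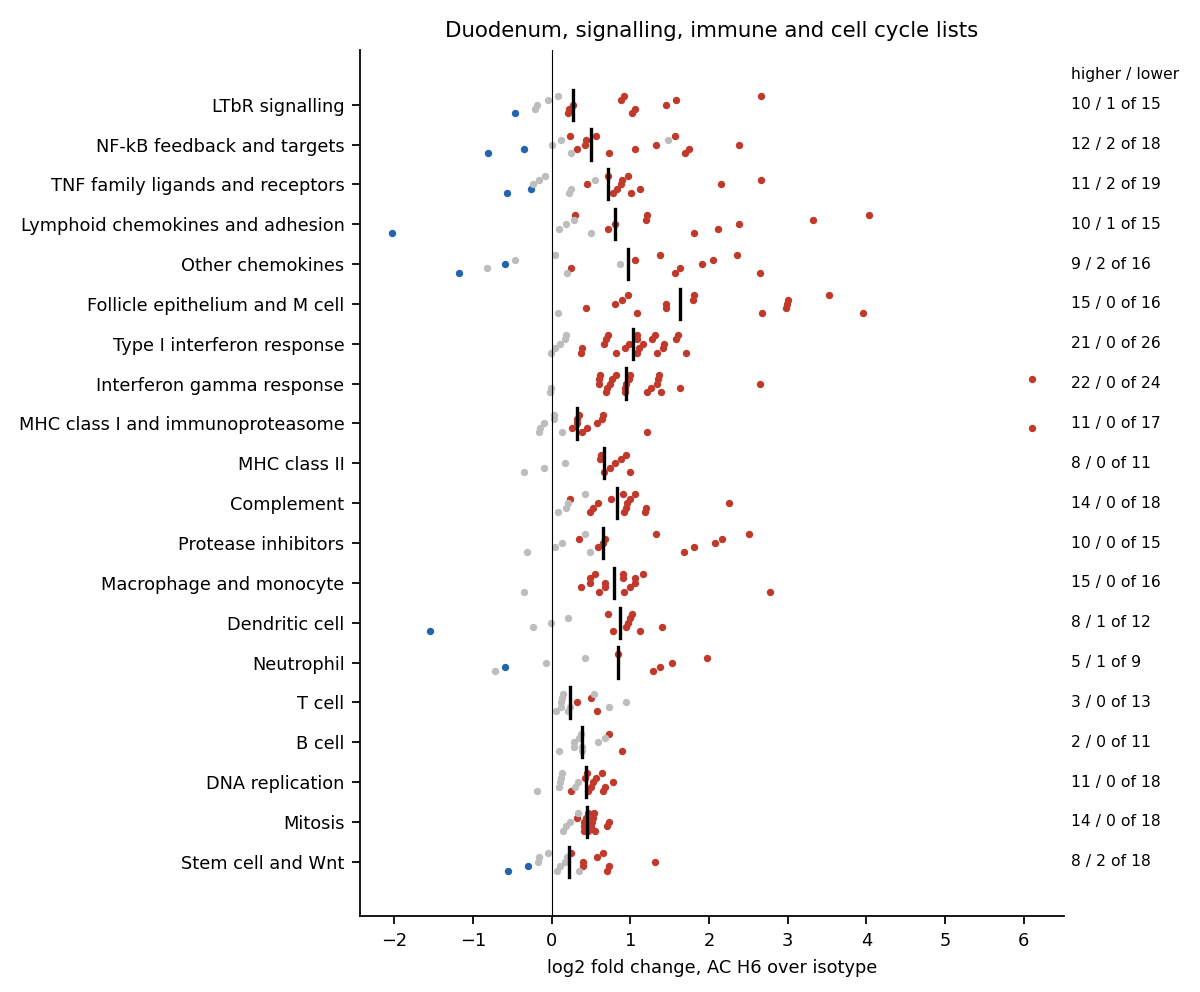
Log2 fold change of AC H6 over isotype (x) of each tested member of 20 gene lists, red where it rose, blue where it fell and grey where it was not called, with the list median as a black bar and the numbers that rose and fell at the right. The follicle epithelium and M cell list sits furthest to the right, and T and B cell genes are mostly grey.

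Markers of myeloid cells rose and those of lymphocytes mostly were not called. Of 16 macrophage and monocyte markers 15 rose (median 0.792): Ccr2, the monocyte chemokine receptor, was at 1.41 to 1.64 CPM and at 9.40 to 11.3 CPM (log2 2.77, SE 0.13), and Cd68, C1qc and Cx3cr1 rose by 1.06 (SE 0.08), 1.06 (SE 0.05) and 0.92 (SE 0.10). Of 12 dendritic cell markers 8 rose and 1 fell (median 0.866), or 5 and 1 without the 2 libraries highest in Rn45s. Zbtb46 rose by 1.40 (SE 0.18) and Itgax by 0.95 (SE 0.06), while the lectin gene Cd209a fell by 1.55 on the log2 scale (SE 0.24). Flt3l, the dendritic cell growth factor, was chosen after its values were seen and rose from 4.40 to 5.49 CPM to 11.6 to 16.7 CPM (1.55, SE 0.15). Of 9 neutrophil markers 5 rose and 1 fell, with Csf3r at 1.53 (SE 0.15) and Mmp9 at 1.28 (SE 0.11). Of T cell markers 3 of 13 rose, a share near the 18.5% of all genes, which were Lck (0.58, SE 0.11), Cd4 (0.51, SE 0.09) and Cd3e (0.33, SE 0.11), and 2 of 11 B cell markers, Bank1 (0.89, SE 0.15) and Cd22 (0.73, SE 0.12). Cd3e was not called when any 1 of the 6 libraries was left out (0.28 to 0.37). Of 9 plasma cell markers none rose and 1 fell. Igj, the joining chain of IgA, was at 373 to 425 CPM and at 323 to 454 CPM, with overlapping groups.

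The epithelial side of IgA transport fell. Pigr, the receptor that carries IgA across the epithelium, was at 4249, 5075 and 4537 CPM in the isotype libraries and at 2009, 2050 and 2357 CPM in the AC H6 libraries (log2 -1.11, SE 0.08, adjusted p = 5.70e-05 in edgeR). Ccl28, the chemokine that draws IgA plasma cells to mucosa, fell from 33.9, 52.0 and 42.8 CPM to 10.3, 10.9 and 10.4 CPM (-2.03, SE 0.14, adjusted p = 4.02e-05 in edgeR), the largest fall at a mean log2 CPM of at least 1 among genes that are not predicted models. Every AC H6 library was below every isotype library for both. Of 13 genes in this list, 5 fell and 2 rose (median -0.233), the other falls being Tnfsf13b, Tnfsf13 and Aldh1a2, an enzyme of retinoic acid synthesis (-0.41, SE 0.06).

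Receptors and products of mucosal defence moved in both directions. Il22ra1, the epithelial receptor chain for interleukin 22, fell from 138, 132 and 162 CPM to 36.8, 40.9 and 51.9 CPM (-1.74, SE 0.13, adjusted p = 7.05e-05 in edgeR). Il28ra, the receptor chain for interferon lambda, was chosen after its values were seen and fell from 21.6 to 25.3 CPM to 8.92 to 11.5 CPM (-1.19, SE 0.10). Il22ra2, the soluble binding protein that blocks interleukin 22, rose by 1.46 (SE 0.24), and Il6st, the shared receptor chain of the interleukin 6 family, by 1.02 (SE 0.06). Reg3g, encoding a lectin that kills Gram-positive bacteria, was at 74.2, 177 and 105 CPM and at 610, 782 and 1206 CPM (log2 2.87, SE 0.35, adjusted p = 0.000649 in edgeR). Its highest library in each group was again the one with the most acinar RNA, and without these 2 libraries the log2 fold change was 2.96. As given for Gp2, the libraries left still differed in acinar RNA. Reg3b was at 117, 378 and 191 CPM and at 338, 616 and 1418 CPM, with overlapping groups (1.79, SE 0.55, adjusted p = 0.0354 in edgeR), and without the same libraries its log2 fold change was 1.63. Reg3b was not called without isotype replicate 1 (1.48), isotype replicate 3 (1.67), AC H6 replicate 2 (1.94) or AC H6 replicate 3 (1.06). Nos2, the inducible nitric oxide synthase, rose by 2.12 (SE 0.26). Of the 22 defence genes 8 rose and 4 fell. Among all genes tested 18.5% rose and 16.1% fell, so the falls were close to that share. Without isotype replicate 3 the counts of defence genes were 5 and 2, and 2 also fell without AC H6 replicate 1 or 2.

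The falls among defence genes included secreted products and the gasdermin C group. Dmbt1, a mucin-like scavenger protein, fell from 2049, 2989 and 2107 CPM to 981, 1148 and 1480 CPM (-0.99, SE 0.18). Gsdmc4 fell from 1.62, 3.61 and 2.96 CPM to 0.0773, 0.0315 and 0.0469 CPM, which is 248 counts against 6 (log2 -5.62, SE 0.47, adjusted p = 9.77e-05 in edgeR). Gsdmc2 (-3.83, SE 0.59) and Gsdmc3 (-3.86, SE 0.59) fell as well. All 3 encode pore-forming proteins of epithelium, are close copies of one another and were low in every library. Retnlb, a goblet cell product that acts against worms, went from 57 counts to 5 (-3.79, SE 0.56). In the gasdermin and inflammasome list 9 of 19 fell and 4 rose (median -0.213). The bacterial sensors Naip1, Naip2, Naip5 and Naip6 and the adaptor gene Pycard (-0.64, SE 0.06) fell, with the Naip genes between -0.34 and -0.59, while Casp4, a sensor of bacterial lipopolysaccharide, rose by 1.19 (SE 0.08) and Zbp1 by 1.30 (SE 0.13). Paneth cell genes were called at close to the shares of all genes, of which 16.1% fell and 18.5% rose. Among 18 Paneth cell genes 4 fell and 3 rose, including Ang4 (-0.73, SE 0.15) and Mmp7 (0.97, SE 0.20), and 10 fell when the acinar score was a covariate. Without isotype replicate 2, AC H6 replicate 1 or AC H6 replicate 2 only 2 fell. Another of the 3 that rose, Lyz2, is also a member of the macrophage and monocyte list. Of 11 goblet cell genes 3 fell and 2 rose, beside the same 16.1% and 18.5% of all genes. None rose without isotype replicate 1, isotype replicate 3, AC H6 replicate 1 or AC H6 replicate 2, and 1 fell without AC H6 replicate 1.

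Genes of dividing cells rose by a small amount. Of 18 DNA replication genes 11 rose and none fell (median 0.438), with Mcm5 at 0.65 (SE 0.07). Of 18 mitosis genes 14 rose and none fell (median 0.446). Mki67, a marker of cycling cells, was at 91.8, 94.3 and 95.9 CPM and at 130, 121 and 151 CPM (log2 0.51, SE 0.09, adjusted p = 0.00295 in edgeR), higher in all 3 AC H6 libraries. In 1 fit over the duodenum and spleen libraries these counts were 5 and 1, with medians of 0.415 and 0.423, and Mki67 was not called (0.49, adjusted p = 0.288 in edgeR). Of 18 stem cell and Wnt genes 8 rose and 2 fell. Ascl2, a stem cell transcription factor, rose by 1.31 (SE 0.14), Olfm4 by 0.71 (SE 0.12) and Lgr5 by 0.40 (SE 0.11), while Rnf43, a feedback inhibitor of Wnt signalling, fell (-0.56, SE 0.08). Lgr5 was not called without isotype replicate 2 (0.32) or AC H6 replicate 1 (0.40). Sox4 rose by 1.58 (SE 0.06). Of 15 enteroendocrine genes 5 rose, none fell and 10 were not called (median 0.217).

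Many absorptive genes of the villus fell, each of those named by less than 2-fold, and few rose. Sis, the sucrase-isomaltase of the brush border, was at 4242, 3860 and 3894 CPM and at 2311, 2345 and 2910 CPM (log2 -0.67, SE 0.09, adjusted p = 0.00102 in edgeR). Of 22 brush border and digestion genes 13 fell and 1 rose (median -0.215), and of 22 nutrient and ion transporters 12 fell and 1 rose (median -0.265), with the chloride exchanger Slc26a3 at -0.79 (SE 0.11) and the peptide transporter Slc15a1 at -0.55 (SE 0.10). Of 22 lipid absorption genes 11 fell and 4 rose (median -0.23). Fabp1, a fatty acid carrier, went from 1322, 1051 and 1168 CPM to 774, 738 and 802 CPM (-0.61, SE 0.08) and the monoacylglycerol acyltransferase gene Mogat2 fell by 0.51 (SE 0.06). The 4 that rose were the cholesterol exporter Abca1 (0.84, SE 0.14) and the apolipoproteins Apoa4 (0.27, SE 0.06), Apoc3 (0.22, SE 0.06) and Apoa1 (0.19, SE 0.06). The call of Apoa1 was lost without any library but isotype replicate 2 (0.14 to 0.20), that of Apoc3 without isotype replicate 2 (0.21), isotype replicate 3 (0.21) or AC H6 replicate 1 (0.19), and that of Apoa4 without AC H6 replicate 3 (0.30). Of 18 tight junction and adhesion genes 5 fell and none rose, with 8 falls without isotype replicate 2 and 3 without AC H6 replicate 1.

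Cholesterol synthesis fell almost throughout. Of 23 genes 22 fell and none rose, with a median log2 fold change of -0.727. Hmgcs1, an early enzyme of the pathway, was at 365, 243 and 382 CPM and at 150, 145 and 161 CPM (log2 -1.12, SE 0.15, adjusted p = 0.00116 in edgeR). Isotype replicate 2 was the lowest of its group for this gene and still above every AC H6 library.

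Falls also outnumbered rises in lists of fatty acid oxidation, the respiratory chain and drug metabolism. Of 19 genes of fatty acid oxidation and ketogenesis 13 fell and none rose (median -0.436), with Cpt1a, the carnitine transferase of mitochondrial import, at -0.53 (SE 0.06) and the regulator of fatty acid oxidation Ppara at -0.71 (SE 0.12). Of 20 respiratory chain genes 18 fell and none rose (median -0.286). Sdha, a subunit of succinate dehydrogenase, went from 882, 872 and 815 CPM to 623, 618 and 647 CPM (-0.44, SE 0.05). Of 26 drug metabolism genes 21 fell and 1, Cyp1a1 (1.03, SE 0.23), rose (median -0.501). Ces1e, a carboxylesterase gene, fell by 0.97 (SE 0.11) on the log2 scale and Cyp2b10 by 0.94 (SE 0.12). Among all genes with the stem Cyp, 33 of 59 fell and 6 rose, and 15 of 19 Ugt genes fell, several of which share exons. Vdr, the vitamin D receptor, was at 812, 739 and 794 CPM and at 484, 502 and 465 CPM (-0.69, SE 0.06), one of 9 of 16 bile acid and nuclear receptor genes that fell with none rising. Of 18 glycolysis and gluconeogenesis genes 7 fell, 1 rose and 10 were not called (median -0.138), the falls including Fbp1 (-0.87, SE 0.10) and Pck1 (-1.18, SE 0.15), enzymes of glucose synthesis. Of 15 iron and haem genes 8 fell and 1 rose, among them the iron exporter Slc40a1 (-0.52, SE 0.09) and the ferritin chain Fth1 (-0.31, SE 0.07).

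Fewer of these falls were called when isotype replicate 1 and AC H6 replicate 2, the libraries highest in Rn45s, were left out, although the medians moved little. The falls then numbered 6 of 22 for the brush border (median -0.208), 4 of 20 for the respiratory chain (-0.247), 9 of 26 for drug metabolism (-0.409), 3 of 15 for iron and haem (-0.210) and 16 of 23 for cholesterol synthesis (-0.665). For drug metabolism the falls numbered 13 without any one of isotype replicate 1, AC H6 replicate 2 and AC H6 replicate 3, and for iron and haem 5 without isotype replicate 1 or AC H6 replicate 3. The list of Brunner gland and stomach genes had 2 rises and 1 fall among 11, no more than the 18.5% and 16.1% of all genes. It had no rise without isotype replicate 3, AC H6 replicate 1 or AC H6 replicate 2. Its rise in Tff2, a trefoil peptide of mucous glands at 3756, 6872 and 5914 CPM against 10163, 10682 and 7009 CPM (log2 0.75, SE 0.22, adjusted p = 0.0300 in edgeR), was not called without the libraries highest in Rn45s (0.43), nor without isotype replicate 3 (0.80), AC H6 replicate 1 (0.68) or AC H6 replicate 2 (0.64). None of the 21 acinar genes was called in edgeR, DESeq2 or limma-voom (median 1.919), 1 had an unadjusted p under 0.05 in edgeR, and 3 rose without isotype replicate 2. Over all genes, 2821 rose and 2532 fell with the acinar score as a covariate, and 2443 rose and 1953 fell without the 2 libraries highest in amylase, isotype replicate 2 and AC H6 replicate 3. In that last setting 2 of 20 acinar genes rose and the median of their list was 3.14, so acinar RNA still differed. The part of stomach RNA in the changes of other genes was not tested.

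**Figure D4:**
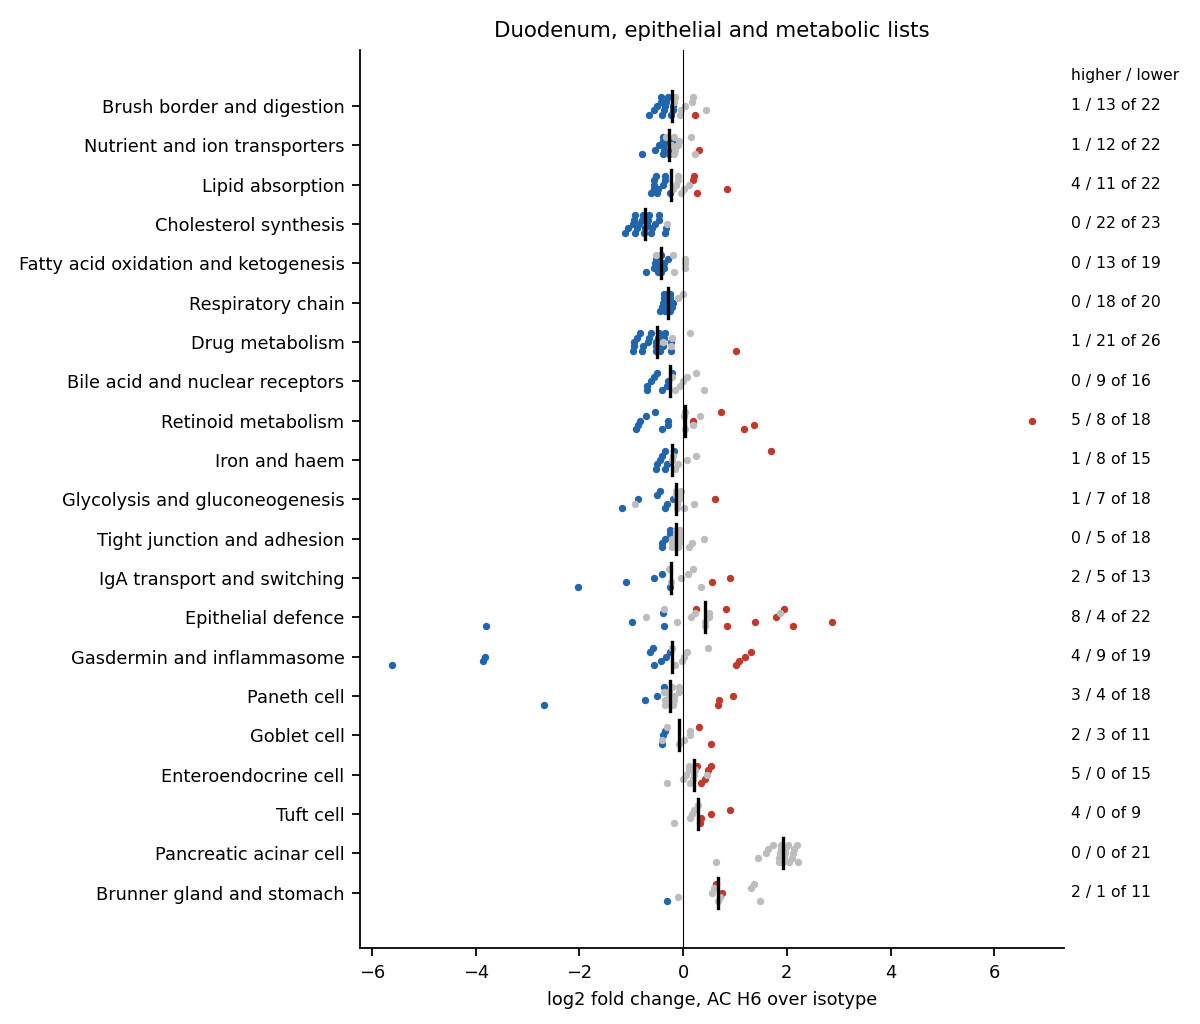
Log2 fold change of AC H6 over isotype (x) of each tested member of 21 epithelial, metabolic and neighbouring-tissue lists, with colours, medians and counts as in the plot of immune lists. Cholesterol synthesis, fatty acid oxidation, respiratory chain and drug metabolism lie left of 0 almost throughout, and the pancreatic acinar list has its median at 1.919 with no gene called.

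Retinoid genes split. Stra6 rose as given above, and Cyp26b1, which breaks down retinoic acid, rose by 1.17 (SE 0.25). Bcmo1, which cleaves beta-carotene, fell (-0.83, SE 0.14), as did the retinol dehydrogenase gene Rdh7 (-0.86, SE 0.14), Aldh1a1 (-0.91, SE 0.25) and the cellular carrier Rbp2 (-0.30, SE 0.08). Aldh1a1 was not called without any library but isotype replicate 2 (-0.65 to -0.97), nor Rbp2 without isotype replicate 1 (-0.25) or AC H6 replicate 3 (-0.30). In all 5 of 18 rose and 8 fell, or 2 and 5 without the libraries highest in Rn45s. Leaving out isotype replicate 1 gave 3 and 5, isotype replicate 2 or AC H6 replicate 1 gave 3 rises, AC H6 replicate 2 gave 2 rises and AC H6 replicate 3 gave 5 falls. Amino acid enzymes split too, with 7 of 17 rising (4 without the 2 libraries highest in amylase) and 6 falling: Il4i1, Ido1 (0.99, SE 0.09) and Glul (0.85, SE 0.08) rose, and Otc (-0.96, SE 0.10) and Oat (-0.77, SE 0.07) fell.

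The other large falls were genes of varied function. Rbp7, a retinol-binding protein gene, fell from 6.36, 4.55 and 5.19 CPM to 1.60, 1.14 and 1.55 CPM (-1.88, SE 0.18). Ros1, a receptor tyrosine kinase gene (-1.84, SE 0.19), Apol10a of the apolipoprotein L family (-1.82, SE 0.15), Dnase1 (-1.80, SE 0.13), the homeobox gene Barx2 (-1.56, SE 0.15), Cfhr2 of the complement factor H family (-1.42, SE 0.16) and the endothelial lipase gene Lipg (-1.39, SE 0.12) fell next. The metallothionein genes Mt1 (-0.94, SE 0.16) and Mt2 (-1.27, SE 0.11), whose products bind zinc, were chosen after their values were seen and fell. Among the 10 called genes with the highest mean CPM, the changes were small. Apoa4 and Apoa1 rose along with Tff2, and Fth1, Alpi (-0.23, SE 0.06), Papss2 (-0.33, SE 0.06), Eef1a1 (-0.19, SE 0.04) and Mgam (-0.40, SE 0.06) fell. Without AC H6 replicate 3, Fth1 (-0.27), Alpi (-0.19), Papss2 (-0.35) and Eef1a1 (-0.21) were not called.

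Most of the large duodenal changes differed from the response of the spleen to the same agent. In spleen 3.98% of 15270 genes were called at an adjusted p under 0.05 in edgeR. A test of the difference between the tissues, the tissue by treatment interaction over the 12 libraries, called 3331 of 16655 genes (20.0%). The signed log2 fold change in duodenum was above that in spleen for 1810 of them and below it for 1521. All 566 genes that were called and changed by more than 2-fold in duodenum were tested for the interaction, and 377 differed between the tissues. In the spleen libraries alone, 111 of the 566 were too low to be tested. Of the other 455, 359 differed between the tissues. The 566 were picked for their change in these same duodenum libraries, so these numbers are partly set by that choice. Nfkb2 had a log2 fold change of 0.19 in spleen, and the difference was 2.45 (SE 0.11, adjusted p = 1.43e-07 in edgeR). Ubd was at -1.03 in spleen, a difference of 7.10 (SE 0.27), and Pigr at 0.25, a difference of -1.38 (SE 0.15). Ltbr itself differed by -0.41 (SE 0.11, adjusted p = 0.0167 in edgeR). No difference was called for Mki67 (-0.53, SE 0.47), the interferon gene Isg15 (-0.17, SE 0.47) or the neutrophil genes Csf3r (0.42, SE 0.16) and S100a8 (-0.16, SE 0.42). These 2 neutrophil genes do not stand for their list, in which 5 of 9 tested markers differed between the tissues. In spleen 8 of the 9 rose, with a median log2 fold change of 1.482, against 5 that rose and 1 that fell in duodenum (median 0.844). Of 259 genes called in both tissues, 181 moved in the same direction and 78 in opposite directions. Mt2 fell in duodenum and was at 1.04 in spleen (difference -2.33, SE 0.37).

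**Figure D5:**
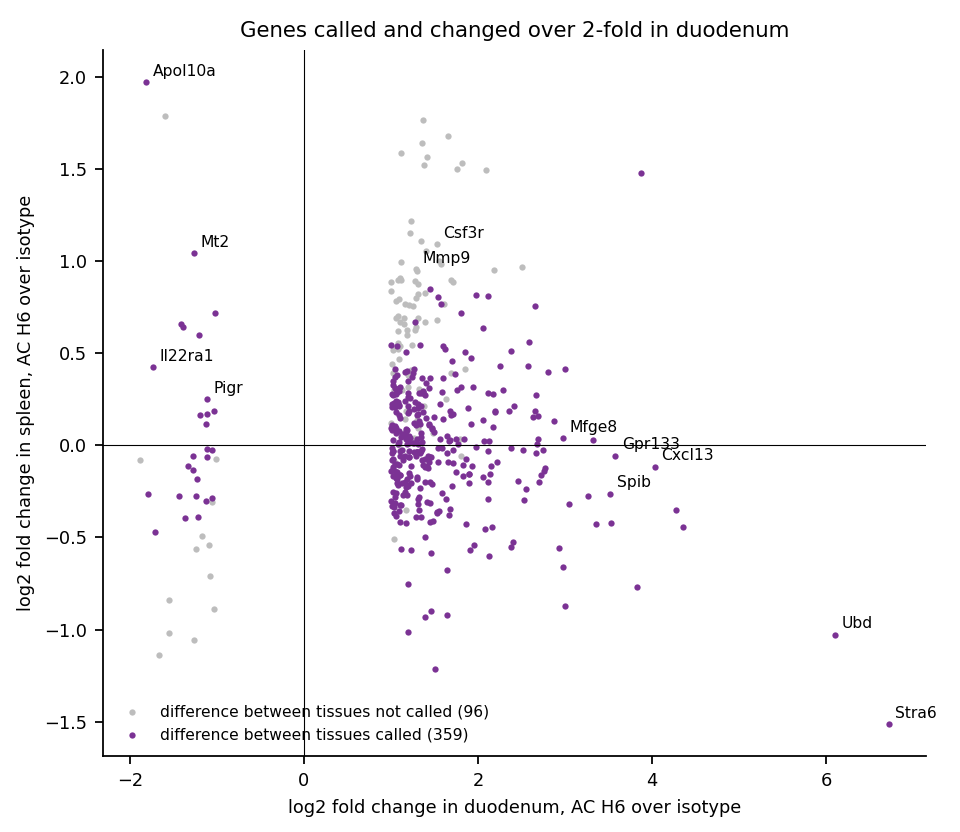
Log2 fold change of AC H6 over isotype in spleen (y) against duodenum (x) for the 455 genes that were called and changed by more than 2-fold in duodenum and could be tested in spleen, purple where the difference between tissues was called (359) and grey where it was not (96). Nfkb2, at 2.66 in duodenum and 0.19 in spleen, is among the purple points.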

How the data were processed

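RNA was sequenced from 6 duodenum and 6 spleen libraries. The authors deposited 1 table of raw counts per gene and library, and the column that keeps reads with several matches was used, so near-identical genes share counts. The tools named, per the submitters' processing notes, were STAR 2.3, Trimmomatic, bcl2fastq 2.19 and edgeR, with mouse build mm10. For the counting step and its annotation, the tool was not given in the sources used here.

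Groups came from the tissue and treatment labels. Genes were filtered with filterByExpr, scaled by the trimmed mean of M-values (TMM) and tested over the 6 duodenum libraries with the quasi-likelihood test of edgeR 4.0.16 (R 4.3.3). The call threshold was a Benjamini-Hochberg adjusted p of 0.05. SE is the size of the log2 fold change over the square root of the F statistic. CPM are over effective library sizes. The difference between tissues was an interaction term over the 12 libraries, which the fit took as separate. Whether duodenum and spleen libraries of the same number came from the same mouse is not stated in the labels. An alternative fit of this term assumed that they did. Library totals of 24811659 to 43851006 counts limit precision for genes at few counts, and exact counting intervals are given where a group held 1 to 3 counts. The duodenum test was tested on simulated data. The alternatives were other scaling, filters, DESeq2 1.42.0, limma-voom (limma 3.58.1), covariates, a replicate block and left-out libraries. No 2 libraries held the same values.

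Named genes were the 15 largest rises and 10 largest falls without overlap at a mean log2 CPM of at least 1, the 10 smallest p, the 10 highest mean CPM, the LTbR list with 7 lymphoid genes, up to 4 members of each list described by p, and all calls of lists with 8 or fewer. Predicted models were left out, and a few genes that met the rule are not reported here. Other genes named were chosen after their values were seen. The gene lists and the comparison were chosen with earlier results of these data known. Promoters came from RefSeq tables, matched by symbol.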

Additional observations from a re-analysis of the deposited data

Results flagged for a closer look

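For 25 of the genes with the largest changes or smallest p in duodenum, the response differed between the tissues by the test of the interaction (adjusted p under 0.05 in edgeR). The values are the log2 fold change in duodenum minus that in spleen. The difference was positive for Stra6 (8.22), Ubd (7.10), Cxcl13 (4.13), Il4i1 (3.93), Spib (3.76), Gpr133 (3.63), Colq (3.62), Fut1 (3.35), Mfge8 (2.92), Ccr2 (2.87), Reg3g (2.72), Marcksl1 (2.65), Celsr1 (2.63), Ccl9 (2.56), Nfkb2 (2.45), Stx11 (2.38), Icam1 (2.37), Lpcat4 (2.13), Mycl1 (1.65) and C1ra (0.89). It was negative for Apol10a (-3.80), Il22ra1 (-2.16), Cfhr2 (-2.09), Lipg (-2.05) and Dnase1 (-1.55), all of which fell in duodenum. These genes were picked for their change in duodenum, so the size of the difference is partly set by that choice. Apol10a fell in duodenum (-1.82) and was at 1.97 in spleen, and Stra6 rose in duodenum and fell in spleen (-1.51).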

How the results depend on the processing

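The duodenum comparison called 2899 genes higher and 2529 lower. Without the 2 libraries highest in Rn45s, isotype replicate 1 and AC H6 replicate 2, it called 1657 and 1113. Leaving out single libraries gave 2240 to 2629 higher and 1739 to 2137 lower. The other alternatives, including DESeq2 with 2526 and 2587, stayed within 1.5 times. Every gene called in the first place kept its direction under each alternative in which it was tested. The groups did not overlap for 5376 of the 5428 genes called, so leaving out libraries could hardly change a direction. Whether replicate numbers pair the libraries is not stated in the labels. Same-numbered deviations from the group means correlated at 0.40, 0.24 and -0.20, and those of other pairs at -0.56 to 0.463. With 3 libraries per group that also differ in Rn45s and acinar RNA, these values cannot decide it. The fit with the replicate block called 2794 and 2627, and with the acinar score as well 2703 and 2544. The tissue interaction called 2556 to 3651 genes over its alternatives, against 3331. Of the called genes named, 13 lost the call without AC H6 replicate 3 and 15 without the Rn45s pair, and none reversed under any alternative. Only uncalled genes changed sign. Leaving out single libraries, the log2 fold change of Tnfsf14 ran from -0.21 to 0.126, and without the Rn45s pair it was 0.0438. That of Igj ran from -0.178 to 0.0692, and without the pair it was 0.0259. The cause of these shifts was not tested.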
